A study of Homo sapiens with 3 samples.

Results

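The genes described here encode orphan and adhesion G protein-coupled receptors (GPCRs), taken from the deposited table by symbol alone, as GPR with a number and an optional letter or as ADGR with a letter and a number. Of 17448 genes in the table, 86 matched, 24 of them adhesion receptors (ADGR) and 62 GPR-numbered genes. H128 is an established human small cell lung cancer (SCLC) line, and its RNA was sequenced 48 h after transfection with a control siRNA (siCont) or an siRNA against ESRRG, the gene of the nuclear receptor ERRγ. The 3 libraries, 1 for each condition, carry the names siCont, siERRG2 and siERRG3, and the labels name the same line and medium for all of them and no genotype. Which numbered siRNA went into siERRG2 and which into siERRG3 is settled by neither the labels nor the methods. With 1 library per condition no difference has a replicate check, and no p-value is given.

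GPCRs cross the membrane several times and pass signals from outside the cell to G proteins and arrestins. A receptor is called orphan when no endogenous ligand is generally accepted for it, and many GPR symbols remain from the time of cloning although a ligand has since been proposed. Adhesion receptors carry a long extracellular part that binds proteins on neighbouring cells or in the matrix and a GAIN domain that can cut itself at the GPS motif, which exposes a tethered agonist. SCLC cells of the neuroendocrine type express many genes of neurons, the cells in which several of these receptors are best known.

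The InterPro annotation in the table fitted the symbols for most domains. The GPS motif was listed for 23 of the 24 adhesion genes, all but ADGRA1, and for 0 of the 62 GPR-numbered genes. The N-terminal entry of the GAIN domain was listed for only 10 of the 24 adhesion genes and for 0 of the 62. A secretin-like membrane domain was listed for all 24 adhesion genes and for 1 GPR-numbered gene, GPR157. A rhodopsin-like domain was listed for 50 GPR-numbered genes, and the C-terminal domain of family 3 receptors for genes that include GPR158 and GPR179. An olfactomedin-like domain marked the latrophilins ADGRL1, ADGRL2 and ADGRL3, and thrombospondin type-1 repeats marked ADGRB1, ADGRB2 and ADGRB3. The symbols also bring in proteins that are not classic surface receptors, such as the Golgi pH regulators GPR89A and GPR89B.

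Counts and levels are listed from here on for siCont, siERRG2 and siERRG3, in that order, and log2 fold changes to siCont, defined further on, for siERRG2 and then siERRG3. ESRRG had 806, 211 and 230 counts, and total estimated counts were 19861937, 19900580 and 20016780. All 9 neuroendocrine markers had at least 10 counts in at least 1 library, and they summed to 36353, 32646 and 32202 counts. Single markers differed in direction. INSM1, with 10359, 5279 and 9168 counts, was at -0.99 and -0.20, and SYP was at -0.05 and -0.51. SCG2 was at 1.23 and 0.11, and SNAP25 at 0.65 and -0.66. Of 5 leukocyte markers, 4 were in the table and summed to 81, 77 and 74 counts. The 3 endothelial markers summed to 1483, 1644 and 611, nearly all from CDH5, which had 1456, 1623 and 585 counts, while KDR had at most 1. The 5 non-neuroendocrine or mesenchymal markers summed to 3147, 4419 and 4000, with YAP1 at most 3 in any library. Nearly all of that sum was VIM, with 1091, 1506 and 1488 counts (0.45 and 0.42), and COL1A2, with 2043, 2896 and 2505 (0.49 and 0.27). The part of these shifts in the receptor values below was not tested.

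Most of the receptor genes were low in H128 cells. Only 52 of the 86 (60.5%) reached 10 counts in at least 1 library, the minimum for a fold change here, against 80.4% of all genes in the table. A mean of 50 counts or more over the 3 libraries was reached by 31 (36.0%), against 65.2% of all genes. Of the 34 genes under 10 counts in every library, 19 had at most 3 in every library, the level treated as a floor. The adhesion genes among these 19 were ADGRA1, ADGRE3, ADGRF2, ADGRG5 and ADGRL4, and the others included GPR17, GPR20, GPR21, GPR25, GPR39, GPR45, GPR52, GPR84, GPR148, GPR171, GPR174 and GPR183. The 15 genes above the floor and under 10 counts were ADGRE2, ADGRF1, ADGRF5, ADGRG2, ADGRG6, GPR4, GPR22, GPR27, GPR61, GPR62, GPR65, GPR78, GPR83, GPR160 and GPR179.

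The median FPKM, a level per transcript length and library size, was 0.165 in siCont, 0.195 in siERRG2 and 0.270 in siERRG3 over the 86 genes, against 4.39, 4.33 and 4.25 over all genes. At least 1 FPKM was found for 29, 30 and 28 receptor genes, and at least 10 FPKM for 10, 9 and 9. The summed receptor counts were 23795, 21874 and 25751, or 0.120%, 0.110% and 0.129% of all counts. A few genes carried most of them, since the highest 5 took 54.4% and the highest 10 took 75.2% of the receptor counts in siCont. The adhesion genes alone summed to 12341, 11938 and 14369 counts, and the GPR-numbered genes to 11454, 9936 and 11382.

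**Figure D1:**
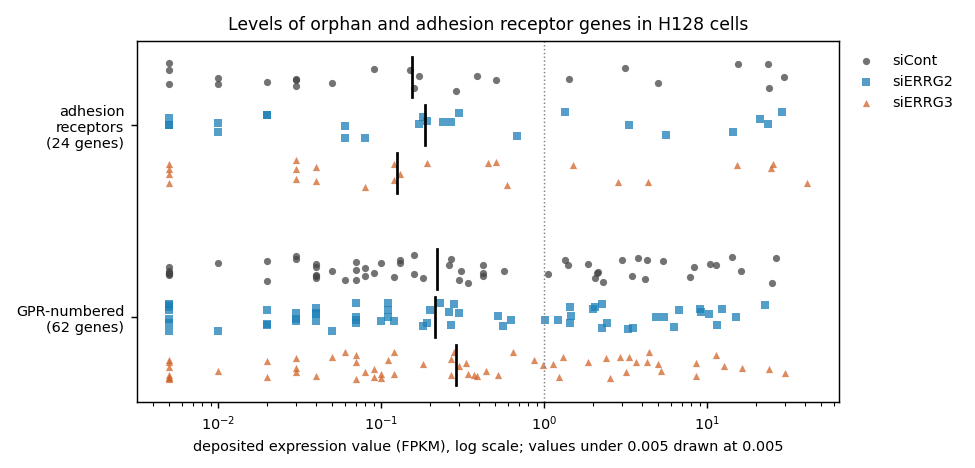
Deposited expression values (FPKM, log axis) of the 24 adhesion and 62 GPR-numbered genes, 1 point per gene and library, with black bars at the medians and a dotted line at 1 FPKM. Most genes of both kinds lie under 1 FPKM in each library, with 29 of 86 at or above it in siCont.

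ADGRL1 had the highest level per length in siCont, 29.8 FPKM. It was followed by GPR153 with 26.4, GPR137 with 25.2, ADGRA3 with 24.0 and ADGRL2 with 23.7 FPKM. Next came GPR12 with 16.1, ADGRB2 with 15.4, GPR89A with 14.2, GPR89B with 11.4 and GPR107 with 10.4 FPKM. In siERRG2, GPR153 was at 12.3 and GPR12 at 6.70 FPKM, while ADGRL1 remained highest at 28.9 FPKM. In siERRG3, ADGRL1 was at 41.0, GPR137 at 29.9 and GPR153 at 23.9 FPKM. The neighbours ADGRA3 and ADGRL2 changed order between libraries, at 24.0 and 23.7 FPKM in siCont, 23.7 and 21.0 in siERRG2, and 24.8 and 25.2 in siERRG3.

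Each fold change below is a difference of log2 CPM (scaled counts on a log axis, to which a prior count of 2 was added, so that low counts are drawn towards 0), and calls were made at 1.2-fold, the threshold of the study. Intervals, given in brackets or in words, are 95% Clopper-Pearson intervals of the scaled count ratio. They cover counting error only and compare the libraries, not the conditions. In bulk RNA, fewer expressing cells and less RNA per cell cannot be told apart.

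In siERRG2, 12 of the 52 genes with enough counts (23.1%) were lower than in siCont by the 1.2-fold rule, against 19.2% of all genes, and 15 (28.8%) were higher, against 16.4%. Among the 31 averaging 50 or more, 5 were lower (16.1%) and 5 higher (16.1%), against 15.5% and 12.8% of all genes. Those lower included GPR12, GPR153, GPR173 and GPR26, and those higher included ADGRL3, GPR158, GPR19 and GPR63. The interval lay apart from 1 in 9 of the 31 (29.0%), against 50.9% of all genes with such counts. Intervals narrow as counts rise, and the genes set side by side were not matched for counts. These shares, here and in the comparisons below, therefore do not show that receptor genes differed less than others. The median log2 fold change was 0.02 over the 52 genes and 0.00 over all genes.

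In siERRG3, 11 of the 52 (21.2%) were lower than in siCont, against 25.1% of all genes, and 14 (26.9%) were higher, against 23.2%. Of the 31 with more counts, 6 were lower (19.4%, against 24.3%) and 6 higher (19.4%, also 19.4% of all genes). GPR108, GPR12, GPR137C, GPR155 and GPR173 were among those lower, and ADGRL1, GPR162, GPR176, GPR3 and GPR37 among those higher. The interval excluded 1 in 15 of the 31 (48.4%), against 63.9% of all genes. The median was 0.04 over the 52 genes and 0.00 over all genes. The 2 comparisons share the siCont library, so their values are given side by side and are not independent of each other.

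Set directly against siERRG2, the siERRG3 library had 12 of 52 genes lower (23.1%, against 25.3% of all genes) and 20 higher (38.5%, against 26.4%). Of those averaging 50 or more counts, 6 of 31 were lower (19.4%, against 25.0%) and 10 higher (32.3%, against 22.1%), with the interval apart from 1 in 18 (58.1%, against 65.9%). The 10 included ADGRL1, GPR12, GPR137, GPR153, GPR173, GPR176, GPR26, GPR3 and GPR37, and the 6 included ADGRB3, GPR108, GPR155, GPR19 and GPR63. The median log2 difference was 0.05 over the 52 genes and 0.01 over all genes.

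**Figure D2:**
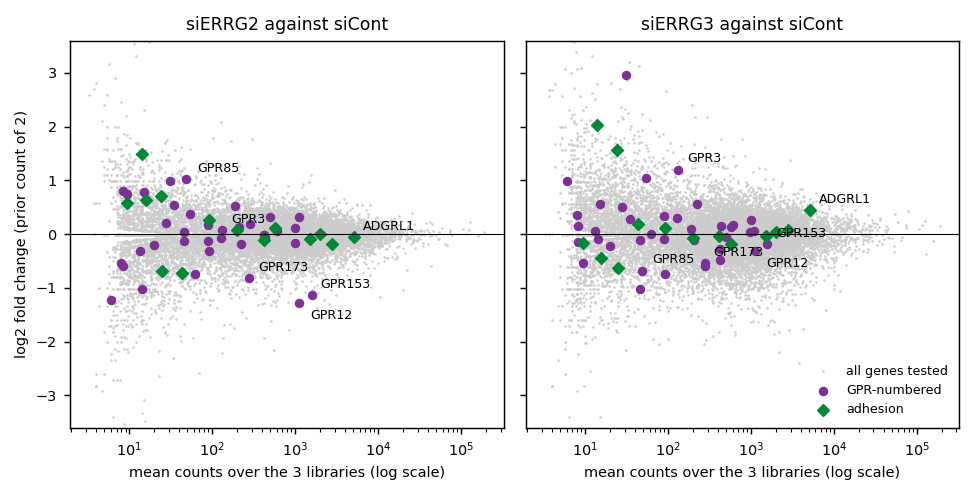
Log2 fold change to siCont against mean counts (log axis) for all 14031 genes tested, with GPR-numbered genes as purple circles and adhesion genes as green diamonds. At high counts GPR12 and GPR153 stand low in siERRG2, at -1.27 and -1.13, and ADGRL1 stands high in siERRG3, with 0.45, while 8 and 9 genes lie outside the vertical axis of the siERRG2 and siERRG3 panels.

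Among the adhesion receptors, the most abundant gene was higher in 1 ESRRG library. ADGRL1 (chr19:14136951-14207036, GRCh38), a latrophilin, which binds teneurins and FLRT proteins across synapses and is a receptor of the spider venom α-latrotoxin, had 4597, 4495 and 6373 counts. The siERRG3 library stood above the other two, which lay close together. The log2 fold change was 0.45 in siERRG3 (interval 1.31 to 1.42) and -0.05 in siERRG2 (0.928 to 1.01), and the direct difference between the ESRRG libraries was 0.50 (1.36 to 1.47). ADGRL2, a close relative with the same ligand classes, had 2831, 2529 and 3046 counts. It did not pass 1.2-fold in either comparison with siCont, with -0.18 in siERRG2 (0.837 to 0.932) and 0.08 in siERRG3 (lower bound rounding to 1.0). ADGRL3 had 82, 100 and 91 counts, and its 0.26 in siERRG2 was just past the threshold with an interval that included 1 (0.891 to 1.63). The fourth latrophilin-family gene, ADGRL4, was at the floor.

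The more abundant of the other adhesion genes differed little between libraries. ADGRA3, related to the Wnt co-receptor ADGRA2, had 1944, 1963 and 2025 counts, with intervals of 0.937 to 1.06 and 0.962 to 1.09. ADGRB2, of the brain angiogenesis inhibitor group, had 1554, 1477 and 1537, with log2 fold changes of -0.09 and -0.04. ADGRB3, a synaptic receptor of C1q-like proteins, had 570, 621 and 510, with 0.11 in siERRG2 and -0.18 in siERRG3 (0.779 to 0.993), so that only its direct difference between ESRRG libraries, -0.29, passed the threshold. ADGRV1, a very large protein of hair cell and photoreceptor links, had 426, 398 and 423 counts, and ADGRE5 (CD97), which binds CD55, had 196, 210 and 189. Both had intervals that included 1 in each comparison. In all, of the 8 adhesion genes with such counts 0 were lower and 1 was higher in siERRG2 (ADGRL3), where all genes gave 15.5% and 12.8%, and 0 were lower and 1 higher in siERRG3 (ADGRL1), where all genes gave 24.3% and 19.4%.

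The G subgroup was low, with 2 of 5 genes at 10 counts or more in a library. ADGRG1 (GPR56), a receptor of collagen III and transglutaminase known from neural progenitors and lymphocytes, had 12, 21 and 40 counts. Its interval in siERRG3 was 1.69 to 6.86, with a log2 fold change of 1.56, and in siERRG2 it included 1 (0.813 to 3.86). ADGRG4 had 4, 15 and 23 counts, and log2 fold changes of 1.49 (1.18 to 15.3) and 2.04 (1.93 to 22.5). At these counts both genes stayed at or below 0.51 FPKM in every library. Other adhesion genes were also low. ADGRA2 had 47, 28 and 55 counts, ADGRB1 had 33, 20 and 21, and ADGRD1 had 14, 23 and 10.

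GPR12 and GPR3, close relatives that signal through Gs and raise cAMP without an added ligand, had unlike orders of libraries. GPR12 (chr13:26727769-26819404) had 1503, 628 and 1235 counts. The siERRG2 library was lowest, and the log2 fold change was -1.27 there (0.376 to 0.454) and -0.31 in siERRG3 (0.749 to 0.872). GPR3 (chr1:27375034-27490170) had 89, 95 and 211 counts, with 0.08 in siERRG2 (0.782 to 1.43) and 1.2 in siERRG3 (1.81 to 3.02). Here siERRG3 stood alone, and the direct difference between the ESRRG libraries was 1.13 for GPR3 (1.73 to 2.85) and 0.97 for GPR12 (1.78 to 2.16). The extents in the table run beyond the RefSeq genes, at 91636 bp against 5587 bp for GPR12 and 115137 bp against 3193 bp for GPR3. The extent of GPR3 overlaps those of WASF2, SYTL1 and CD164L2. Its longest coding transcript, of 2137 bases, shares 0 of its 2088 stretches of 50 bases with transcripts of another gene read in the same direction. That count covers the transcript and not the extent. It cannot show whether reads of overlapping genes entered the counts of GPR3. Extents of other receptor genes also overlap those of other genes, among them GPR137, GPR153, GPR155 and GPR176, and the same limit holds for their counts.

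GPR6, the third close relative, had 10, 19 and 16 counts. GPR26, another constitutively active receptor, had 71, 42 and 72, with -0.75 in siERRG2 (0.389 to 0.868) and a value close to siCont in siERRG3 (0.708 to 1.40). GPR161, a ciliary receptor that restrains Hedgehog signalling, had 48, 44 and 45 counts. GPR21, GPR52 and GPR78 of the same group were under 10 counts in every library.

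GPR153 (chr1:6240863-6261092), an orphan of the rhodopsin class, had the second largest difference in siERRG2 of the more abundant genes. It had 2010, 925 and 1799 counts, and log2 fold changes of -1.13 (0.420 to 0.492) and -0.18 (0.825 to 0.938). As for GPR12, the siERRG2 library lay below both others. GPR162, also an orphan, had 77, 88 and 100 counts, with 0.34 in siERRG3 and an interval that included 1 (0.939 to 1.74).

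The SREB receptors, named for their strong conservation and their expression in brain, gave unlike values. GPR173 (chrX:53048420-53080615) had 364, 209 and 254 counts, so siCont was the highest library. Its log2 fold changes were -0.81 (0.477 to 0.675) and -0.54 (0.582 to 0.808). GPR85 had 39, 82 and 24 counts, with siERRG2 highest and siERRG3 lowest. The log2 fold change of GPR85 was 1.02 in siERRG2 (1.40 to 3.13) and -0.68 in siERRG3, where the interval reached 1.03 from 0.348. GPR27, the remaining gene of this group, was under 10 counts in every library.

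Of the proton-sensing receptors, GPR132 had 6, 12 and 7 counts, and GPR4 and GPR65 were under 10 in every library.

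Of the class C orphans, GPR158 was called higher in siERRG2. GPR158 (chr10:25113058-25603154), a large neuronal receptor that anchors the regulator RGS7 to the membrane, had 992, 1250 and 1054 counts. Its log2 fold change was 0.32 in siERRG2 (1.15 to 1.36) and 0.06 in siERRG3 (0.957 to 1.14). GPR179, known from retinal bipolar cells, was under 10 counts in every library.

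Receptors linked to peptides and amines were mixed. GPR19 had 158, 231 and 173 counts, higher in siERRG2 by 0.53 on the log2 scale (1.18 to 1.78) and within counting error of siCont in siERRG3 (0.863 to 1.34). GPR37, a receptor known as a substrate of parkin, had 118, 114 and 148, with 0.30 in siERRG3 and an interval from 0.962 to 1.58. GPR1, a receptor that binds chemerin, had 93, 86 and 89 counts, with intervals that included 1. GPR75 had 18, 8 and 17 counts, with -1.01 in siERRG2 (0.165 to 1.06).

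Lipid, nucleotide and metabolite receptors were at the bottom of the range. Of 9 genes, 3 reached 10 counts in a library and 0 a mean of 50. GPR35, which responds to kynurenic acid, had 5, 1 and 12 counts, and its intervals, 0.00418 to 1.77 and 0.774 to 8.55, both included 1. GPR34 had 23, 27 and 34 counts and GPR18 had 10, 6 and 9. The extents of GPR34 and GPR82 overlap in the table.

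All 9 genes of proteins on intracellular membranes or outside the classic families reached 10 counts in a library, and 8 averaged 50 or more. GPR137, a lysosomal membrane protein, had 953, 859 and 1160 counts, with -0.17 (0.812 to 0.978) and 0.26 (1.10 to 1.31), neither of which passed 1.2-fold. The direct difference between the ESRRG libraries was 0.42 (1.23 to 1.47). GPR137C had 444, 442 and 372, with -0.28 in siERRG3 (0.716 to 0.948). GPR137B had 14, 11 and 15 counts.

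GPR155, a lysosomal cholesterol sensor, had 468, 469 and 339 counts, and siERRG3 was the low library, with -0.49 (0.618 to 0.821). GPR108, a Golgi protein, also had its lowest value in siERRG3, with 299, 347 and 202 counts and -0.59 in siERRG3 (0.553 to 0.797). Its relative GPR107 had 941, 1026 and 981 counts, with 0.11 and 0.04. GPR180 had 535, 587 and 595. For GPR107 the ratio of count to FPKM, which follows the transcript length used in the table, implied 4.56 kb in siCont, 5.63 kb in siERRG2 and 5.77 kb in siERRG3. It was the only 1 of the 31 whose implied length changed at least 1.2-fold, against 0.756% of all genes with such counts in siERRG2 and 1.07% in siERRG3. By FPKM, GPR107 was therefore at 10.4, 9.15 and 8.49.

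GPR89A had 560, 593 and 644 counts and GPR89B had 418, 410 and 470. Both lie on chromosome 1 and encode the Golgi pH regulator. Of the 50-base stretches of the longest coding transcript, 84.9% in GPR89A and 95.3% in GPR89B occur in transcripts of the other or of GPR89C and GPR89P, so the division of reads among them is uncertain. Among the 31 genes, 18 shared no such stretch with another gene and 26 shared under 5%. Besides the GPR89 copies the exceptions were GPR37 with 20.7%, ADGRE5 with 13.3%, mainly with its relative ADGRE2, and ADGRA3 with 9.43%, with its pseudogene ADGRA3P1.

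The remaining GPR-numbered receptors included genes with a difference in 1 library. GPR176, an orphan that signals in the circadian clock of the hypothalamus, had 195, 173 and 294 counts, with 0.56 in siERRG3 (1.23 to 1.79) and -0.19 in siERRG2 (0.711 to 1.08). GPR63 had 461, 584 and 451, with 0.32 in siERRG2 (1.11 to 1.42) and -0.06 in siERRG3. GPR135 had 205, 227 and 193, with intervals that included 1. GPR157, the secretin-like receptor of primary cilia, had 54, 56 and 26 counts, level with siCont in siERRG2 and at -1.02 in siERRG3 (0.285 to 0.769). The lower orphans included GPR82 with 28, 42 and 35 counts, GPR141 with 22, 19 and 19, and GPR146 with 8, 5 and 11. GPR182, an endothelial receptor of chemokines, had 8, 15 and 5 counts.

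**Figure D3:**
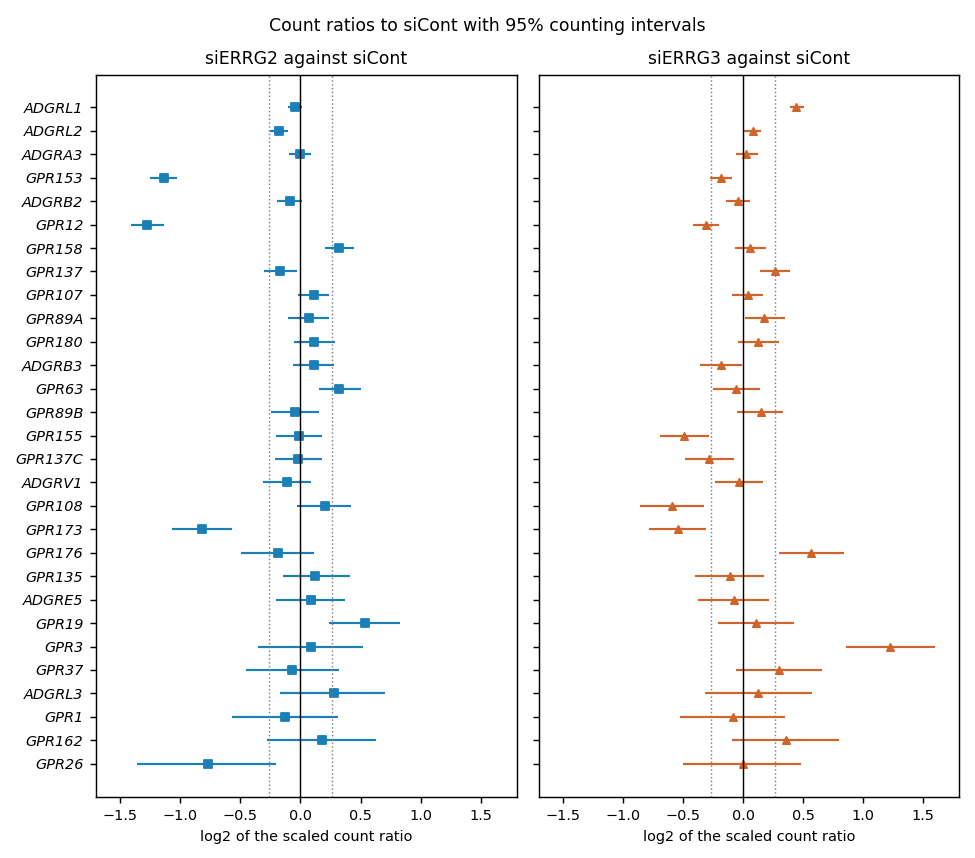
Log2 of the scaled count ratio to siCont with 95% Clopper-Pearson counting intervals for 29 receptor genes averaging 50 or more counts, with dotted lines at 1.2-fold. GPR12, GPR153 and GPR173 lie wholly beyond the dotted line on the low side in siERRG2, and ADGRL1, GPR3 and GPR176 wholly beyond it on the high side in siERRG3.

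Proteins that bind or regulate these receptors were counted by the same rule. Of 28 listed ligands of adhesion receptors, 27 were in the table and 23 reached 10 counts. In siERRG2, 10 of the 23 were lower and 3 higher, against 19.2% and 16.4% of all genes. In siERRG3, 9 were lower and 8 higher, against 25.1% and 23.2%. The ligands had median log2 fold changes of -0.19 and -0.17, both medians over all genes being 0.00. Of the 15 averaging 50 or more counts, 5 were lower and 2 higher in siERRG2, against 15.5% and 12.8% of all genes. In siERRG3, 4 of these 15 were lower and 6 higher, against 24.3% and 19.4%. Their median was -0.11 in each comparison. TENM1, a teneurin and ligand of latrophilins, had 1431, 1633 and 960 counts, and log2 fold changes of 0.17 and -0.60. The FLRT ligands differed among themselves, FLRT1 with 366, 228 and 331 counts (-0.69 and -0.17) and FLRT3 with 245, 269 and 382 (0.12 and 0.61). NRXN3 had 69, 36 and 103 counts, with -0.92 and 0.54. C1QL1, a C1q-like ligand of ADGRB3, had 928, 1267 and 1712, with 0.43 (1.24 to 1.47) and 0.86 (1.67 to 1.97). In siERRG3, where ADGRL1 was higher, TENM1 and TENM3 (-0.33) were lower and FLRT3 was higher. The other teneurin and FLRT genes averaging 50 or more counts, TENM4 (-0.07) and FLRT1, were not called there. A relation between receptor and ligand was not tested. ADGRB3 was not called against siCont in either library.

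All 7 arrestins and GPCR kinases, which end receptor signalling, had a mean of at least 50 counts. In siERRG2 3 were lower and 0 higher, against 15.5% and 12.8% of all genes with such counts. In siERRG3 2 were lower and 3 higher, against 24.3% and 19.4%, and none differed by 1.5-fold. The medians were -0.07 and 0.07. Of 11 listed binding partners and ligand enzymes, 10 were in the table and 6 reached 10 counts, with medians of 0.12 and 0.03. Of these 6, 1 was lower and 1 higher in siERRG2, against 19.2% and 16.4% of all genes, and 3 and 3 in siERRG3, against 25.1% and 23.2%. The 5 averaging 50 or more counts had medians of 0.15 and 0.38. Of these 5, 1 was lower and 1 higher in siERRG2, against 15.5% and 12.8% of all genes. In siERRG3 2 were lower and 3 higher, against 24.3% and 19.4%. RGS7, the partner of GPR158, had 40, 63 and 57 counts (0.61 and 0.47), and CYP7B1, an enzyme of oxysterol metabolism that makes the ligand of GPR183, had 436, 289 and 284 (-0.61 and -0.64), while GPR183 itself was at the floor.

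Of 33 related receptors with other symbols, 28 were in the table and 17 reached 10 counts. In siERRG2 6 of the 17 were lower and 5 higher, against 19.2% and 16.4% of all genes. In siERRG3 8 were lower and 5 higher, against 25.1% and 23.2%, and the medians were -0.18 and -0.02. Of the 7 averaging 50 or more counts, 2 were lower and 2 higher in siERRG2, against 15.5% and 12.8% of all genes. In siERRG3, 4 of the 7 were lower and 1 higher, against 24.3% and 19.4%. The medians of these 7 were 0.11 and -0.27, so the medians depended on the genes with low counts. CELSR2, an adhesion receptor with cadherin repeats, had 1755, 1124 and 1484 counts, with -0.66 and -0.27. Its relative CELSR3 went the other way, with 1311, 1444 and 1933 counts, at 0.12 and 0.54. GPRC5C, a class C orphan, had 650, 376 and 312 (-0.80 and -1.08). LGR4, a receptor of R-spondins, had 125, 225 and 95 (0.82 and -0.41).

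ERR receptors bind DNA at the letters TNAAGGTCA, which hold the shorter AAGGTCA. Both were searched on both strands, as TGACCTTNA and TGACCTT on the other, in RefSeq promoters of GRCh38.p14 from 250 bases before to 50 after a start. A window was found for 61 of the 86 receptor genes. The longer motif was in 0 of the 61, against 0.833% of 13693 genes of the table, and the shorter in 1 (1.64%), against 4.05%. The 1 match was in ADGRF3, an adhesion receptor with 8, 13 and 7 counts, at chr2:26345840-26345869 on the minus strand. It is shown because no other window of a receptor gene held the motif, with the motif in capitals, 46 to 40 bases before a start. The RefSeq extent of ADGRF3 runs to 26346789 on this chromosome, so this start and the motif lie inside the gene.
ADGRF3 promoter: gagagggggtgaAAGGTCAatttcccagcg
The match is a description of the sequence, and the absence of a match concerns only these letters in these windows.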

How the data were processed

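RNA of H128 cells was measured in 3 libraries, 1 per condition. Per the labels the libraries came from a directional paired-end kit, whereas single-end reads of 50 bases are named in the methods, with alignment to hg19 by BWA and Bowtie 2, and the submitters' processing notes name TopHat2, HTSeq and DESeq2 and the builds GRCh38, hg19 and hg38. Gene positions in the table are on GRCh38, and the strand used in counting is not given in the sources used here. The authors deposited estimated counts per gene, not normalized and not always whole, and an expression value that behaves as FPKM. The deposited log2 ratios, p-values and adjusted values of the authors' own comparisons, each library against siCont, were not used.

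Counts were rounded, genes kept that reached 10 counts in any library (14031 of 17448), and libraries scaled with TMM factors of 0.994, 1.003 and 1.003 (edgeR 4.0.16, R 4.3.3). Intervals used SciPy 1.17.1. At this depth ADGRL3, with 82 counts in siCont, had an interval of 0.891 to 1.63 in siERRG2, and ADGRL1, with 4597, one of 0.928 to 1.01. Stretches of 50 bases shared between genes were counted in the transcripts of GENCODE for GRCh37, in the direction of the transcripts only. The computations were tested on simulated data.

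Named receptor genes were all those with a mean of at least 50 counts, plus those with fewer that differed at least 2-fold from siCont in an ESRRG library. Partner genes were named at a mean of 50 and 1.5-fold, and TENM3 and TENM4 were added to complete the teneurins with such a mean. CELSR3 was added beside CELSR2 for the same reason. Other receptor genes given with their counts, and the marker genes given with values, were added to complete a group or list. The members, lists and rules were chosen with earlier results of these data known. Alternatives were CPM from total counts, size factors of DESeq2 1.42.0, FPKM with a pseudocount of 0.1 or 1, a prior count of 0.5, genes averaging 50 or more counts, no filter on counts, a threshold of 1.5-fold, and leaving out proteins that are not surface receptors. The siRNA sequences are not printed here, and some receptor genes are counted but not reported one by one.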

Additional observations from a re-analysis of the deposited data

Results flagged for a closer look

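In 5 receptor genes the log2 fold changes to siCont passed 1.2-fold in opposite directions in the 2 ESRRG libraries. That is 9.62% of the 52 with enough counts, against 6.05% of all genes tested. Of the 21 averaging under 50 counts it is 23.8%, against 12.5%. With 1 library per condition the difference was not tested. GPR85 had 39, 82 and 24 counts, listed as siCont, siERRG2, siERRG3, at 1.02 and -0.68 on the log2 scale. ADGRD1 had 14, 23 and 10 counts, with 0.63 and -0.44. GPR182 had 8, 15 and 5, with 0.75 and -0.53. GPR146 had 8, 5 and 11, with -0.53 and 0.36. GPR35 had 5, 1 and 12, with -1.23 and 0.98. All 5 had a mean under 50 counts, and GPR85 alone of them had an interval apart from 1 in a comparison with siCont.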

How the results depend on the processing

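No paired analysis was possible because each condition has 1 library, and for the same reason no library could be left out. With an FPKM pseudocount of 1, siERRG2 had 3 of the 52 genes lower and 4 higher than siCont. In this setting siERRG3 had 6 higher than siCont, and 8 were higher in siERRG3 than in siERRG2. Without a filter on low counts, 26 of all 86 were lower and 25 higher in siERRG2. These numbers were 23 and 24 in siERRG3, and 24 were lower in siERRG3 than in siERRG2. A mean of at least 50 counts, with scaling redone on those genes, left 31 receptor genes. The numbers lower and higher were then 5 and 4 in siERRG2, 6 and 7 in siERRG3, and 6 and 11 between the ESRRG libraries. At 1.5-fold, 8 of the 52 were higher in siERRG2, and 5 were lower and 6 higher in siERRG3. Between the ESRRG libraries 7 were lower and 12 higher. Shares of all genes were not computed under these settings, so these numbers have no background beside them. The other 50 of 70 counts and medians kept within 1.5 times or 0.05 on the log2 scale. Of 34 called values of named genes, 14 were under the threshold with an FPKM pseudocount of 1, 1 with a pseudocount of 0.1, and 0 with total-count CPM, DESeq2 size factors or a prior count of 0.5. A prior count of 0.5 draws values less towards 0 than the 2 used, and the TMM factors were 0.994, 1.003 and 1.003. Total-count CPM and the lower prior count could therefore hardly bring a called value under the threshold, and their 0 is no check of the calls. Of the 22 called values of genes averaging 50 or more, 1 was under it with scaling redone on those genes. For GPR107 the FPKM values gave -0.18 and -0.29 with a pseudocount of 0.1, against 0.11 and 0.04 from counts, where its implied length changed.

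Variation between cultures is not known from these libraries. Under 50 counts the counting intervals are wide, and of the 34 genes under 10 counts GPR65 alone, with 9, 0 and 4 counts, had an interval apart from 1, in siERRG2 (0 to 0.501).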
